A study of Mus musculus with 6 samples.

Results

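The genes described here encode the proteins of the cytosolic ribosome. They were taken from a table of 17145 genes by name (*Rpsa* and every gene named Rpl, Rplp or Rps with a number), with the S6 kinases left out, and had to be listed as protein coding. The retrogene *Rpl37rt* was also kept, although the table lists it as a transcribed pseudogene, so that it could be set beside its parent *Rpl37*. This gave 88 genes, 34 of the small and 54 of the large subunit. Of these, 85 (34 and 51) reached the 10 unique molecular identifiers (UMIs, 1 for each captured mRNA molecule) over all libraries that a gene needed to be tested, as did 7665 genes in all. The 3 left untested were *Rpl23a* and *Rpl22l1* with 1 UMI each and *Rpl29* with 9.

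Transcripts were measured in hearts of mice in which *Ndufs6*, a subunit of respiratory complex I, is knocked down, mainly in the heart (FS6KD), a model of mitochondrial cardiomyopathy. All 6 libraries carry the knockdown, are labelled female and labelled cardiomyocytes, and no wild-type library is among them. Sections of fresh-frozen heart were reverse transcribed in place, stained for Atf3, a stress-induced transcription factor, and lit with ultraviolet light only over chosen areas, which releases the cDNA of those areas (photo-isolation chemistry, PIC). The groups were 3 libraries from areas with strong staining (Atf3 high) and 3 from areas with weak staining (Atf3 low). An area can hold several cells, the age of the mice is not given in the labels, and whether areas of both groups came from the same hearts is not given in the sources used here. The p-values therefore measure the spread between these libraries.

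Each ribosome carries one copy of most of these proteins, so their mRNAs are made in near-equal supply and rank among the most abundant of any cell. Most of them begin with a terminal oligopyrimidine (TOP) tract, a C followed by an unbroken run of C and T, through which the kinase mTORC1 controls their translation together. Mammalian genomes also hold many reverse-transcribed copies of ribosomal protein mRNAs, most of them pseudogenes, which makes it hard to assign short reads to one locus.

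The libraries held between 81117 and 210588 UMIs, and 83 to 87 of the 88 genes had at least 1 UMI in each. The library Atf3 high replicate 2 went against its female label: it had 8 UMIs each of *Ddx3y* and *Eif2s3y*, encoded on the Y chromosome, and 0 of *Xist*, which the other 5 libraries had at 3 to 26. The counts over the ribosomal protein genes, their copies and related lists are given with and without it. *Atf3* mRNA itself, with 50, 7 and 25 UMIs under strong staining and 35, 0 and 8 under weak staining, overlapped between the groups, which had been chosen by protein staining. All 10 cardiomyocyte markers were detected in every library. Values per library are given below in the order of replicates 1, 2 and 3, those of Atf3 high first and those of Atf3 low after the word against.

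The start sites were searched for this tract. RefSeq start sequences (assembly GRCm38.p6) could be matched to 64 of the 88 genes, with 76 starts. A C followed by C or T for at least 5 bases in all, searched on the transcribed strand only and beginning no more than 5 bases from the annotated start, was found at 42.1% of their starts, against 18.4% of the 32851 starts of all genes. At the annotated start base itself the shares were 18.4% and 2.51%. Since annotated starts can lie some bases from the true one, the lack of a run says only that these letters are not in this window. The windows below run from 10 bases before to 20 bases from the start, with the run in capitals, and are shown because they carry the longest runs (*Rpl27a*, *Rpl15*), a run at the start base (*Rpl38*), a run kept in a retrogene (*Rps27rt*) beside its parent (*Rps27*), or belong to the S6 kinase substrate *Rps6*.
Rpl27a, chr7:109519185-109519214, plus strand: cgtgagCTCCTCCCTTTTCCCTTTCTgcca
Rpl15, chr14:18270967-18270996, minus strand: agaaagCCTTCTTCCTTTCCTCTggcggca
Rpl38, chr11:114668570-114668599, plus strand: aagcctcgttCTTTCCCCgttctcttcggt
Rps6, chr4:86857348-86857377, minus strand: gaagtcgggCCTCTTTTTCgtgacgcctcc
Rps27, chr3:90213629-90213658, minus strand: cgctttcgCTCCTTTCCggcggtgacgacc
Rps27rt, chr9:114982720-114982749, minus strand: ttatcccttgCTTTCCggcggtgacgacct
The muscle paralog *Rpl3l* had no such run beginning within 5 bases of its start.
Rpl3l, chr17:24727816-24727845, plus strand: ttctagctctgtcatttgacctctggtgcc
The 29 tested genes with a run at 1 of their starts had a median log2 fold change, Atf3 high over Atf3 low, of 0.23 with 21 above 0, and the 34 tested genes without one a median of 0.33 with 28 above 0.

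As a share of all UMIs, the ribosomal protein genes took 3.08%, 3.22% and 1.90% in the Atf3 high libraries (2.73% ± 0.723, SD, n = 3) and 2.17%, 1.89% and 1.64% in the Atf3 low libraries (1.90% ± 0.267). Atf3 high replicates 1 and 2 lay above all others, while replicate 3 lay among the Atf3 low libraries, so the groups overlapped. The difference between the means, 0.833 percentage points, became 0.590 without Atf3 high replicate 2 and 1.25 without replicate 3. Counting error was small beside this: the 95% Wilson interval of Atf3 high replicate 3 ran from 1.84% to 1.96% and that of Atf3 low replicate 2 from 1.82% to 1.97%. Such intervals cover counting error only. Both subunits took part, with the small subunit at 1.06% ± 0.250 and 0.747% ± 0.104 of UMIs and the large at 1.67% ± 0.473 and 1.151% ± 0.163. Small subunit UMIs per large subunit UMI stood at 0.623, 0.611 and 0.679 against 0.646, 0.652 and 0.648, which overlapped.

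Other contents of the libraries also varied, and not all of them followed this share. The 10 cardiomyocyte markers took 2.51%, 2.52% and 4.62% of UMIs against 3.94%, 4.89% and 5.47%, and all 10 were fitted lower in Atf3 high, 4 of them at an unadjusted p under 0.05 and 3 with no overlap. Of all genes tested, 2.24% were lower at that threshold and 3.89% lower with no overlap. The cardiac myosin heavy chain *Myh6* was 1 of the 4 markers at that threshold, with a log2 fold change of -1.81 (SE 0.32, edgeR adjusted p = 0.00512). The 10 fibroblast markers took 0.607%, 0.329% and 0.207% against 0.237%, 0.240% and 0.139%, and 9 were fitted higher, 3 of them at that threshold. Of all genes tested, 3.55% were higher there. Endothelial markers took 0.185%, 0.142% and 0.158% against 0.152%, 0.141% and 0.0928%. Mural cell markers took 0.0822%, 0.0296% and 0.0727% against 0.0531%, 0.0382% and 0.0159%. Atf3 high replicate 2, highest in the ribosomal protein share, was thus the lowest of its group in both. Macrophage and leukocyte markers stayed between 0.0195% and 0.0384% in all 6 libraries, none of the 5 adipocyte markers was in the table, and 2 of 6 erythrocyte and 2 of 5 Schwann and neuronal markers were. Mitochondrially encoded genes took 17.1%, 21.2% and 16.9% of UMIs against 21.9%, 21.9% and 22.6% (18.4% ± 2.45 and 22.1% ± 0.416). Outside them the ribosomal protein share was 3.71%, 4.08% and 2.29% against 2.78%, 2.42% and 2.11%. The part of these cell types in the ribosomal protein values was not tested. In such areas, fewer cells of a type and less RNA per cell cannot be told apart.

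**Figure D1:**
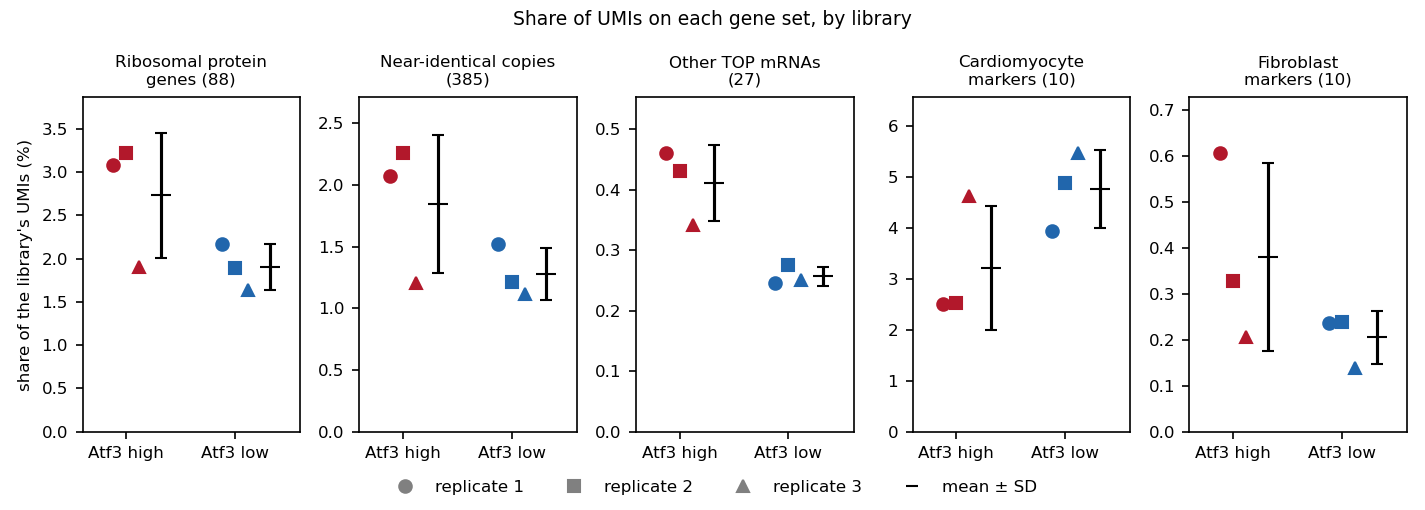
Percent of each library's UMIs (y axes, each from 0) on 5 gene sets in the Atf3 high (red) and Atf3 low (blue) libraries, with the mean ± SD in black. Atf3 high replicate 3 (triangle, 1.90%) lies among the Atf3 low libraries for the ribosomal protein genes and for their copies, and its cardiomyocyte marker share of 4.62% also lies among theirs.

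Gene by gene, 68 of the 85 tested ribosomal protein genes (80.0%) had a fitted level above that of the Atf3 low group, with a median log2 fold change of 0.32 (quartiles 0.03 and 0.57). Over all genes tested 55.2% lay above 0, with a median of 0.11, and over the 1024 genes with at least 100 UMIs 48.7% did, with a median of -0.03. The small subunit had 26 of 34 above 0 (median 0.32) and the large 42 of 51 (median 0.31). The 58 members with at least 100 UMIs had 50 above 0 (median 0.33) and the 27 with fewer had 18 (median 0.13). Without Atf3 high replicate 2, 58 of the 85 lay above 0 and the median was 0.16, beside 0.11 for all genes, and without replicate 3 it was 0.45, beside 0.05.

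Few members passed a test singly. In the quasi-likelihood test of edgeR, adjusted by Benjamini-Hochberg over all genes, 1 member passed an adjusted p of 0.05, the retrogene *Rpl37rt*, which fell; 0.0913% of all genes tested were called. At an unadjusted p under 0.05, 4 members were higher in Atf3 high (3.55% of all genes were) and 1 was lower (2.24% of all genes were). In 7 of the 85 (8.24%) every Atf3 high library lay above every Atf3 low library, against 7.07% of all genes, and in 1 every Atf3 high library lay below, against 3.89%. These unadjusted and no-overlap counts are near the share of all genes, and with *Rpl37rt* set aside 0 of 84 were called. The 58 members with at least 100 UMIs held all 7 without overlap on the higher side (12.1%), against 5.18% of the 1024 genes of that depth. They also held the 4 higher at an unadjusted p under 0.05, against 36 of the 1024. On the lower side 1 had no overlap and 1 passed that threshold, against 66 and 43 of the 1024. Without Atf3 high replicate 2, 0 members were higher and 1 lower at an unadjusted p under 0.05.

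**Figure D2:**
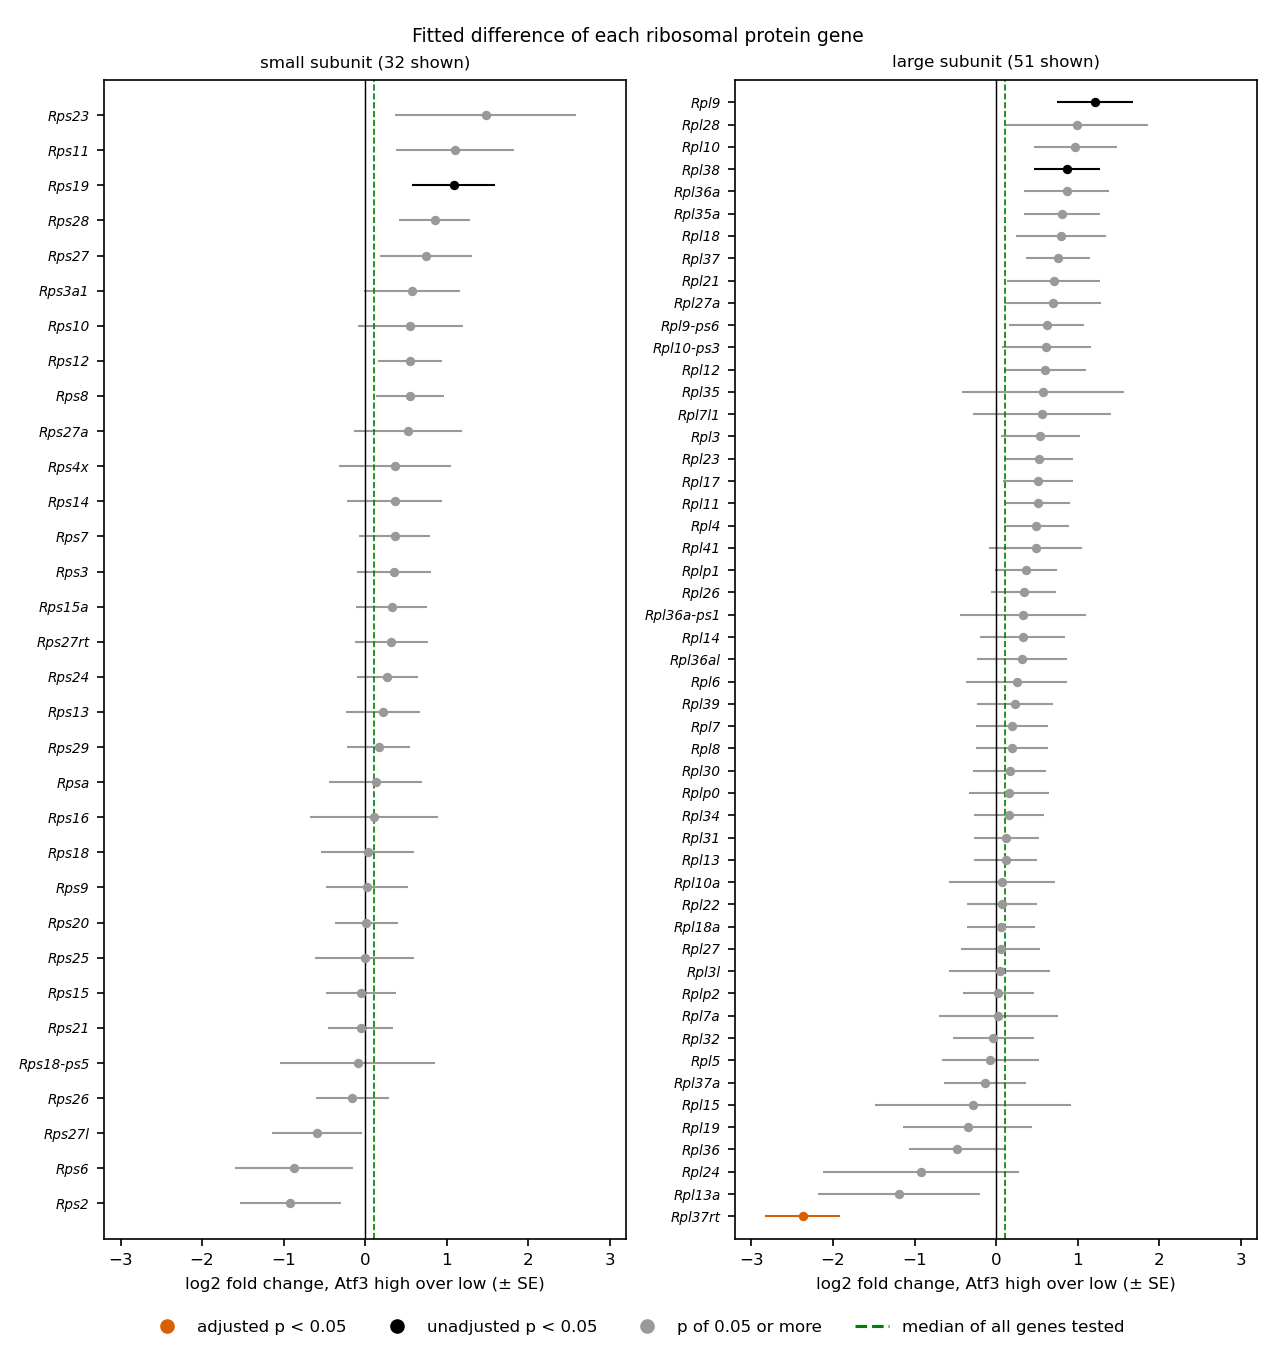
Fitted log2 fold change of Atf3 high over Atf3 low (x axis, ± SE) of 83 of the tested ribosomal protein genes, in order of size within each subunit, with the median of all genes tested (0.11) as a dashed green line. Of the 83 points 66 lie to the right of 0, and *Rpl37rt* (orange) is apart at -2.37.

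Of the 4 members higher at an unadjusted p under 0.05, *Rpl9*, *Rps19* and *Rpl38* are described here. *Rpl9*, a protein of the large subunit, had 97, 46 and 60 UMIs against 30, 32 and 6. After scaling the groups did not overlap, and the log2 fold change was 1.22 (SE 0.47, edgeR, Benjamini-Hochberg adjusted p = 0.663). *Rps19*, the gene most often mutated in Diamond-Blackfan anemia, an inherited failure of red cell production, had 53, 34 and 33 UMIs against 13, 18 and 11. Its log2 fold change was 1.09 (SE 0.51, edgeR adjusted p = 0.823). *Rpl38*, known from mice for its part in translating Hox mRNAs during patterning of the skeleton, had 157, 64 and 110 UMIs against 51, 39 and 35, a log2 fold change of 0.87 (SE 0.40, edgeR adjusted p = 0.823). In these 3 genes the Atf3 high libraries lay above the Atf3 low libraries in CPM, with Atf3 high replicate 3 the nearest to them. For *Rps19* that library had 154 CPM beside 150 CPM in Atf3 low replicate 2, a gap of less than 1 UMI. Without Atf3 high replicate 2, the log2 fold changes of the 3 genes were 1.02, 0.72 and 0.78 in the same order, and none had an unadjusted p under 0.05.

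The next in order were *Rps28* (0.85), *Rpl37* (0.76), *Rpl10* (0.97) and *Rpl35a* (0.81), none with an unadjusted p under 0.05. *Rps28*, at the mRNA exit of the small subunit, had 87, 42 and 71 UMIs against 38, 30 and 14. *Rpl10*, which joins the large subunit late and is needed for it to become active, had 50, 24 and 35 against 24, 11 and 7. *Rps28*, *Rpl10* and *Rpl35a* were without overlap, while *Rpl37* overlapped. For *Rpl10* the gap was less than 1 UMI, with 163 CPM in Atf3 high replicate 3 and 162 CPM in Atf3 low replicate 1. Of the 19 tested genes mutated in Diamond-Blackfan anemia, 16 lay above 0 (median log2 fold change 0.36), with *Rps19* among the 2 at an unadjusted p under 0.05, beside 80.0% above 0 over all tested members and 3.55% of all genes at that threshold. Of the 19, 15 lay above 0 (median 0.18) without Atf3 high replicate 2, and 0 were at that threshold.

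On the lower side, the smallest p after *Rpl37rt* belonged to *Rps2*, *Rps6*, *Rpl13a*, *Rps27l*, *Rpl36*, *Rpl24* and *Rpl19*, and none of these had an unadjusted p under 0.05. *Rps2*, which sits where mRNA enters the small subunit, had 14, 2 and 21 UMIs against 11, 22 and 10, a log2 fold change of -0.92 (SE 0.62). *Rps6*, the substrate of the S6 kinases, had 7, 8 and 6 against 19, 11 and 3, a log2 fold change of -0.87 (SE 0.72). The groups overlapped in both. *Rpl13a* had 4, 3 and 2 UMIs against 3, 11 and 2, *Rpl24* had 3, 0 and 4 against 2, 3 and 3, and *Rpl19* had 12, 3 and 9 against 3, 13 and 4. Their values of -1.19, -0.92 and -0.35 rest on these few molecules.

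Members of 3 known substructures lay between -0.07 and 0.51. In the P stalk, which recruits elongation factors, *Rplp0* had a log2 fold change of 0.16, *Rplp1* of 0.37 and *Rplp2* of 0.03, each with an SE between 0.38 and 0.49. Along the exit tunnel, through which the new chain leaves, *Rpl4* had 0.49, *Rpl17* 0.51 and *Rpl39* 0.23. *Rpl5* and *Rpl11*, which form a particle with the smallest ribosomal RNA and bind Mdm2 when assembly fails, stood apart from each other at -0.07 and 0.51. *Rpl5* had 36, 8 and 19 UMIs against 19, 28 and 1, and *Rpl11* had 176, 83 and 122 against 112, 81 and 20, so Atf3 low replicate 3 was the lowest library for both. The direction of *Rpl5* was not stable and turned to 0.13 when libraries were scaled by their size alone.

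The 5 members with most UMIs over the 6 libraries were *Rpl4* (856), *Rpl13* (722), *Rpl37* (719), *Rplp1* (663) and *Rps12* (641), and the median member had 164.5. *Rpl4* had 274, 122 and 147 UMIs against 210, 61 and 42, and *Rpl13* had 233, 87 and 103 against 165, 86 and 48. *Rps12* had 225, 92 and 103 against 120, 64 and 37, a log2 fold change of 0.55 (SE 0.39). Per kilobase of annotated exon, the tested members ran from 6.87 UMIs over the 6 libraries for *Rpl15* to 1329 for *Rplp1*. *Rpl38* stood at 841 and *Rps29* at 818, and UMIs on near-identical copies are left out of these values. These libraries tag one end of each molecule, so UMIs do not grow with length and the scale per kilobase favours short genes.

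In each of the 6 libraries the spread over the members was wider than the shift of the median member. The median member lay 0.34 and 0.44 above its own mean over the 6 libraries (log2 CPM) in Atf3 high replicates 1 and 2 and 0.18 below it in replicate 3, against 0.00, -0.10 and -0.30, while the SD over the members was 0.42 to 0.60 in each library. Of the 85, 70, 63 and 26 were above their own mean in the 3 Atf3 high libraries and 43, 37 and 21 in the Atf3 low libraries. The same median over all genes tested was 0.13, -0.07 and 0.11 against 0.05, 0.00 and -0.23. When each member was taken as a share of the ribosomal protein UMIs, the mix stood out most in 2 libraries: of the 58 members with at least 100 UMIs, 8 were at no more than 0.5 times, and 3 at no less than 2 times, their share in the other 5 libraries in Atf3 low replicate 3, and 6 and 2 were in Atf3 high replicate 2, while the other 4 libraries had at most 3 and 2. *Rpl5*, *Rps3a1*, *Rpl21* and *Rpl9* were lowest in Atf3 low replicate 3, and these 2 libraries are the shallowest, with 81917 UMIs and, for Atf3 high replicate 2, 81117. The part of depth in this was not tested. Across the 85 members, which are not independent replicates, log2(UMIs + 1) correlated between libraries of one group at r = 0.783 to 0.887 and between libraries of different groups at r = 0.751 to 0.886.

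**Figure D3:**
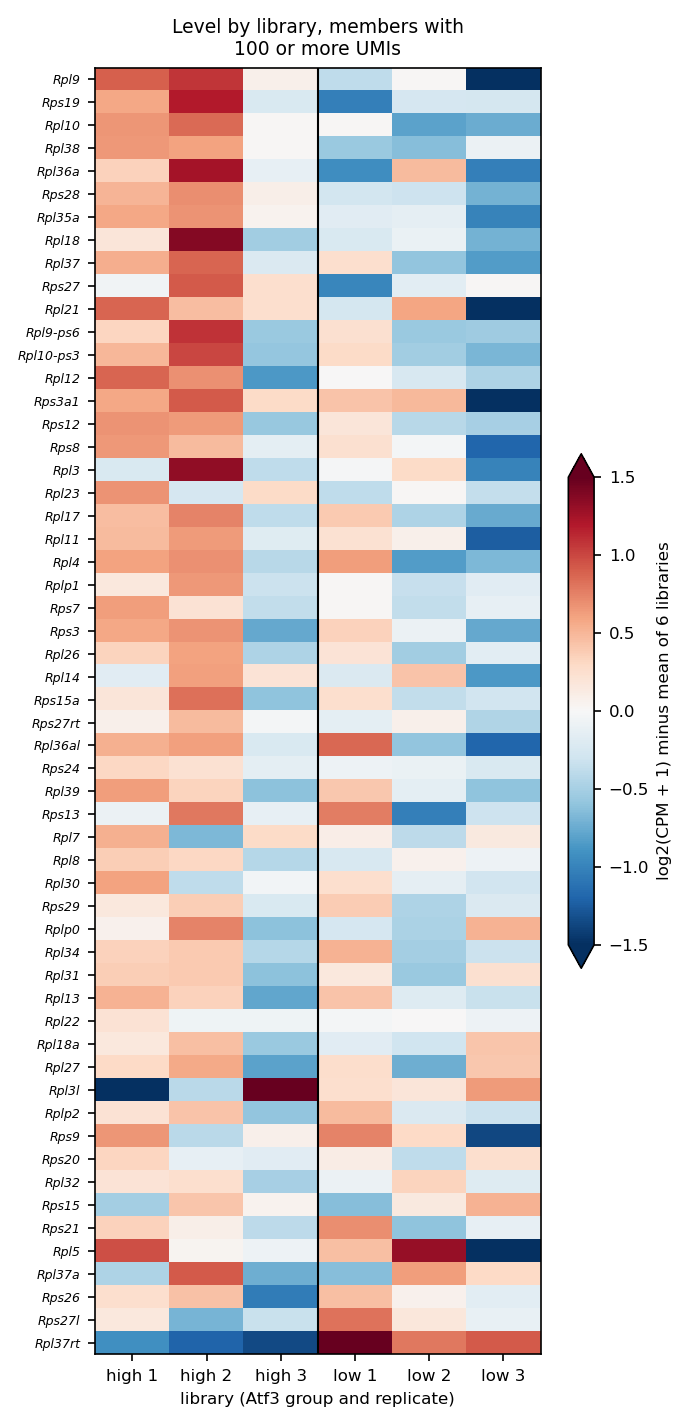
Level of 56 of the members with at least 100 UMIs in each library, as log2(CPM + 1) minus the mean of the 6 libraries (colour, limited at 1.5 either way), ordered by log2 fold change. Atf3 high replicates 1 and 2 are mostly red and Atf3 high replicate 3 is mostly near or below 0, while *Rpl37rt* in the last line is blue in all 3 Atf3 high libraries and red in all 3 Atf3 low libraries.

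*Rpl37rt* had the smallest p of all members. It had 26, 9 and 21 UMIs against 126, 52 and 35, or 113 ± 17.5 CPM and 587 ± 228 CPM (SD, n = 3). The groups did not overlap, and the log2 fold change was -2.37 (SE 0.46, edgeR quasi-likelihood test, Benjamini-Hochberg adjusted p = 0.0148). Without 1 library it stayed between -2.60 and -2.05, but of these 6 fits it kept an adjusted p under 0.05 in 2, those leaving out Atf3 high replicate 3 and Atf3 low replicate 2. The adjusted p was 0.167 without Atf3 high replicate 1, 0.121 without Atf3 high replicate 2, 0.302 without Atf3 low replicate 1 and 0.0809 without Atf3 low replicate 3.

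Its parent *Rpl37*, a protein of the large subunit, went the other way in fitted level. It had 224, 119 and 144 UMIs against 138, 62 and 32, a log2 fold change of 0.76 (SE 0.39, edgeR adjusted p = 0.899). Of the UMIs of both, *Rpl37rt* held 10.4%, 7.03% and 12.7% (10.1% ± 2.86) against 47.7%, 45.6% and 52.2% (48.5% ± 3.38). The upper end of the 95% Wilson interval of the highest Atf3 high library was 18.7% and the lower end of the lowest Atf3 low library was 36.8%. The exact two-sided permutation test of the share gave p = 0.1, the smallest that 3 against 3 libraries allow (adjusted p = 0.6 over 6 pairs of paralogs). Summed with their 2 other copies, the loci had 253, 128 and 165 UMIs against 267, 117 and 67, which overlapped, with a log2 fold change of -0.05 (SE 0.37).

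Within the stretch that their transcripts share, the 2 loci differ by little. *Rpl37rt* lies at chr5:115102923-115110268 on the minus strand and *Rpl37* at chr15:5116645-5119140 on the plus strand (GRCm38, GENCODE). Transcripts Rpl37-201 (835 bases) and Rpl37rt-201 (682 bases) align over 344 bases with 1 mismatch, G286A, counted from the first base of Rpl37-201, in its coding sequence. Beyond the aligned stretch Rpl37-201 runs on for 462 bases and Rpl37rt-201 for 263 bases at the end where these libraries are primed, so a read within the shared stretch that does not reach that base matches both loci. The windows of 25 bases around the mismatch, in capitals, are shown because this base tells the loci apart within the shared stretch.
Rpl37, chr15:5118579-5118603, plus strand: tgagggaacaacGccgaaacccaag
Rpl37rt, chr5:115103261-115103285, minus strand: tgagggaacaacAccgaaacccaag
Whether the 2 loci were told apart correctly was not tested, and how reads matching several places were handled is not given in the sources used here.

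The other paralogs did not separate the groups. *Rps27rt*, whose transcript matches that of *Rps27* over 341 bases with 0 mismatches, held 65.1% ± 4.56 of the pair's UMIs against 70.7% ± 9.38 (exact permutation p = 0.5). *Rps27l*, a paralog that p53 induces, held 38.8% ± 14.5 and 59.9% ± 15.8 of its pair with *Rps27* (exact permutation p = 0.2). The shares of *Rpl36al* beside *Rpl36a* and of *Rpl7l1* beside *Rpl7* also overlapped (exact permutation p = 0.9 and 0.5).

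*Rpl3l*, which takes the place of *Rpl3* in ribosomes of heart and skeletal muscle, varied widely between libraries of one group. It had 4, 6 and 59 UMIs against 17, 13 and 11, a log2 fold change of 0.04 (SE 0.62), which turned to -1.56, with 4 and 6 UMIs left on the Atf3 high side, without Atf3 high replicate 3. *Rpl3* had 46, 57 and 45 UMIs against 40, 40 and 10. *Rpl3l* thus held under 10% of the pair in Atf3 high replicates 1 and 2 (the latter 9.52%) and 56.7% in replicate 3, against 29.8%, 24.5% and 52.4% (exact permutation p = 0.6). The 95% Wilson interval of Atf3 high replicate 3, from 47.1% to 65.8%, lay above those of Atf3 high replicates 1 and 2, which ended at 18.8% and 19.3%. The 2 libraries with the lowest *Rpl3l* share were also those with the lowest cardiomyocyte marker share, 2.51% and 2.52%, and the part of this in the *Rpl3l* values was not tested.

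**Figure D4:**
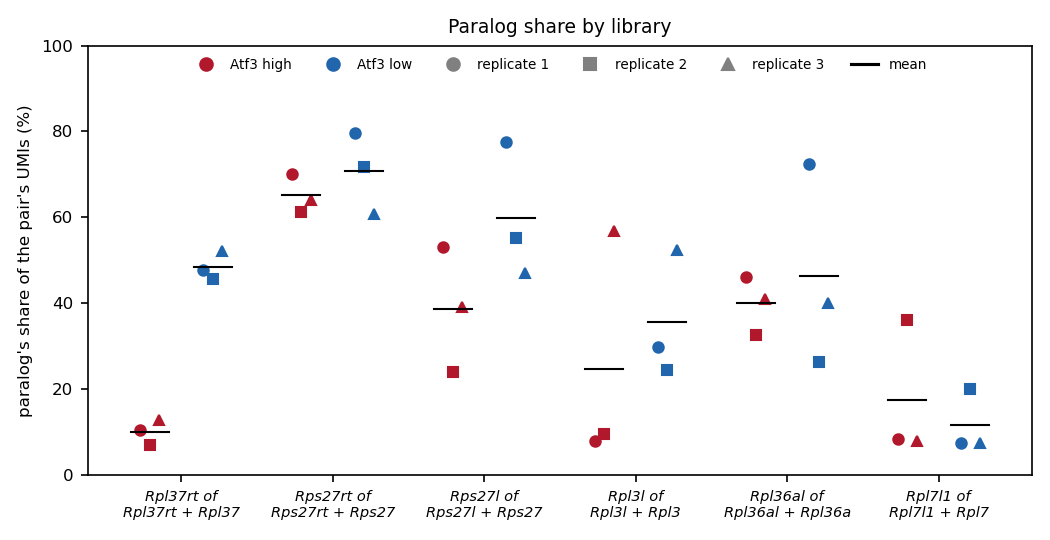
Share of each pair's UMIs counted on the paralog (y axis, 0 to 100%) in the 3 Atf3 high (red) and 3 Atf3 low (blue) libraries, with the group mean as a line. Only for *Rpl37rt* among the 6 pairs do the groups lie apart, at 7.03% to 12.7% and 45.6% to 52.2%.

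Much of the signal of this family was counted on copies. A copy was taken as a pseudogene or other member whose transcript aligned at no less than 95% identity over at least 200 bases. Of the 88 members 78 had at least 1 such copy with UMIs, and 385 copies that are not members held 13249 UMIs beside the 19732 on the members, 40.2% of the sum. In 41 members the copies held more UMIs than the member, among them 23 of the 30 members with fewer than 100 UMIs and 18 of the other 58. *Rpl21* had the most copies, 29, with 556 UMIs beside 111 on itself.

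*Rpl15* and *Rpl24* show how far this can go. *Rpl15* had 17 UMIs while its 9 copies had 428, of which 196 lay on *Rpl15-ps3*, identical to it over 615 bases. *Rpl24* had 15 UMIs while the processed pseudogene *Gm9385*, with 1 mismatch in 472 bases, had 382. That mismatch is C472T, counted from the first base of transcript Rpl24-201, in its coding sequence. The windows are shown with it in capitals, to let the aligned stretches be compared. Outside them Rpl24-201 has 158 bases at its start and 47 at its end that Gm9385-201 lacks.
Rpl24, chr16:55969618-55969642, plus strand: aggaaagcccagCgagagcaggcta
Gm9385, chr9:116040739-116040763, minus strand: aggaaagcccagTgagagcaggcta
How the counting split reads between such members and their copies was not tested. *Rpl28* (38 UMIs beside 440), *Rps23* (23 beside 214) and *Rpl7a* (55 beside 364) were of the same kind, while 10 members, among them *Rps29*, *Rps3*, *Rpl8*, *Rpl39*, *Rplp2* and *Rpl3l*, had no copy with UMIs. Those 10 had a median log2 fold change of 0.21 with 9 above 0, and the 75 tested members with copies had 0.33 with 59 above 0.

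**Figure D5:**
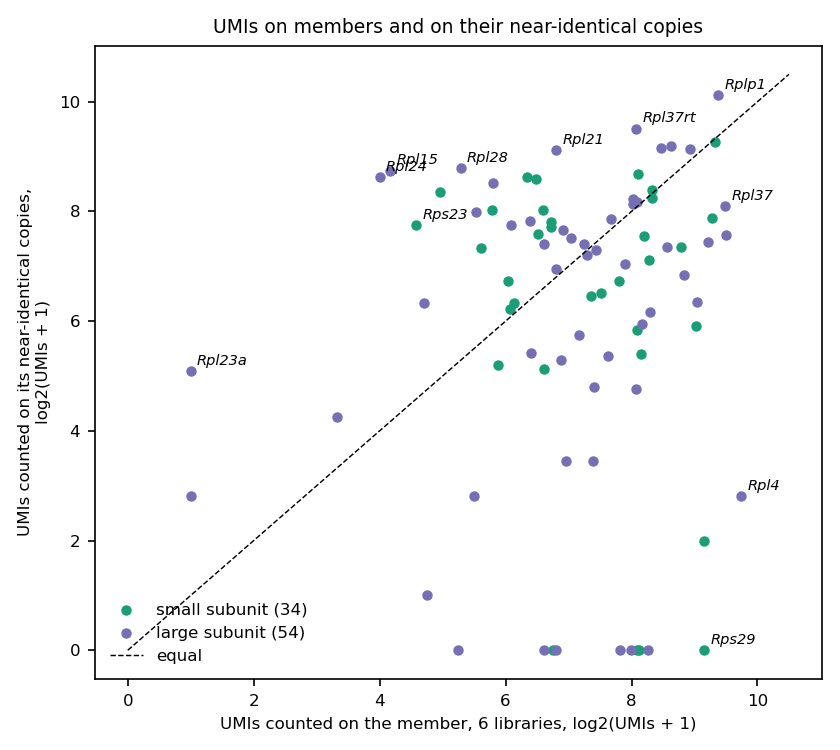
UMIs over the 6 libraries on each of the 88 members (x axis) and on its near-identical copies (y axis), both as log2(UMIs + 1), with the line of equal counts dashed. Points above the line, such as *Rpl15* (17 beside 428) and *Rpl24* (15 beside 393), have more UMIs on copies, and those at the bottom, such as *Rps29*, have no copy with UMIs.

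When each member was summed with its copies, 81 families resulted, and 67 lay above 0 with a median log2 fold change of 0.26. Over all genes and families of that fit 55.0% lay above 0, with a median of 0.11. None was called in the quasi-likelihood test of edgeR after Benjamini-Hochberg adjustment. At an unadjusted p under 0.05, 3 were higher, which is near the 3.55% of all genes when tested gene by gene. The 3 families were *Rpl38* (1.00, SE 0.39), *Rpl9* with *Rpl9-ps6* (0.94, SE 0.41) and *Rps28* (0.92, SE 0.43), whose smallest adjusted p was 0.681. Of the 81 families, 54 lay above 0 (median 0.16) without Atf3 high replicate 2, and 1 was higher at that threshold. The sums moved some members far from their own value: *Rps6* went from -0.87 to 0.78 and *Rps2* from -0.92 to -0.19. Members and copies together took 5.15%, 5.47% and 3.11% of UMIs against 3.69%, 3.10% and 2.75%, so Atf3 high replicate 3 again lay among the Atf3 low libraries.

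Of the 152 copies that could be tested, 105 lay above 0 (median 0.28), 0 were called by edgeR with Benjamini-Hochberg adjustment, 5 were higher and 2 lower at an unadjusted p under 0.05, and 16 were higher and 5 lower with no overlap. Over all genes tested the shares are 3.55% and 2.24% at that threshold and 7.07% and 3.89% with no overlap, so these counts are near the background. Without Atf3 high replicate 2, 77 of 142 copies lay above 0 (median 0.09), 3 were higher and 2 lower. Those named here were chosen after their values had been seen. *Gm16409*, a copy of *Rps6* with 10 mismatches in 747 bases, had 34, 17 and 20 UMIs against 3, 2 and 2, a log2 fold change of 2.84 (edgeR adjusted p = 0.223). *Gm6867*, a copy of *Rps15*, had 11, 7 and 11 against 0 in each Atf3 low library, at least 7.69-fold higher with 3 UMIs over the Atf3 low group as the floor. *Rpl22-ps1* had 15, 6 and 5 against 0 in each, at least 6.89-fold higher by the same floor, while *Rpl22* itself had a log2 fold change of 0.07. *Gm16409*, *Gm6867* and *Rpl22-ps1* reached the 10 UMIs needed for testing only through the Atf3 high group. The folds by the floor pool the libraries of each group and allow for the 0 only, not for the spread between libraries. In the other direction, *Gm9320*, a copy of *Rps24*, had 8, 9 and 12 against 27, 19 and 9.

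Genes that work with the ribosomal protein genes were counted in 4 lists, beside 55.2% of all genes above 0, a median of 0.11, 3.55% of all genes higher and 2.24% lower at an unadjusted p under 0.05, and 7.07% higher with no overlap. Of 26 other tested TOP mRNAs, which encode elongation and initiation factors and host small nucleolar RNAs, 22 lay above 0 with a median log2 fold change of 0.61, 6 had no overlap and 1 had an unadjusted p under 0.05. Their share of UMIs was 0.461%, 0.432% and 0.341% against 0.247%, 0.276% and 0.250%, with no overlap between the groups. The one at that threshold was *Snhg1*, a host of small nucleolar RNAs, with 50, 18 and 39 UMIs against 11, 6 and 0, a log2 fold change of 2.22 (SE 0.62, edgeR adjusted p = 0.364).

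For ribosome biogenesis 35 of 46 tested genes lay above 0 (median 0.49), with *Eif6*, which keeps the subunits apart until the large one is mature, higher and *Bop1*, a factor of large subunit rRNA processing, lower at an unadjusted p under 0.05. *Eif6* had 13, 15 and 2 UMIs against 0, 2 and 1, and *Bop1* had 2, 1 and 4 against 9, 7 and 9. Each reached the 10 UMIs needed for testing only through the group where it was higher. For RNA polymerase I and its factors 8 of 13 lay above 0 (median 0.32), with 2, *Rrn3* and *Taf1b*, higher at that threshold. *Rrn3*, which brings the polymerase to the rRNA promoter, had 17, 12 and 28 UMIs against 5, 7 and 3. *Taf1b* had 1, 0 and 9 against 0, 0 and 0, so only the Atf3 high group, mostly its replicate 3, brought it to the 10 UMIs needed for testing. For mTORC1 and the control of TOP mRNAs 11 of 15 lay above 0 (median 0.12). *Eif4ebp1*, a repressor of cap-dependent translation that mTORC1 inactivates, had 22, 17 and 14 UMIs against 3, 10 and 0, a log2 fold change of 1.71 (SE 0.75, edgeR adjusted p = 0.794). No gene of these 4 lists passed an adjusted p of 0.05. Without Atf3 high replicate 2, which gave *Eif6* 15 of its UMIs, the log2 fold change of *Eif6* went from 2.99 to 1.91 and neither it nor *Eif4ebp1* (1.24) nor *Rrn3* (1.27) had an unadjusted p under 0.05. The tested genes above 0 were then 22 of 25, 30 of 43, 7 of 13 and 9 of 14 in the order of the lists. At that threshold 1 other TOP mRNA and 1 gene of the RNA polymerase I list were then higher. In the ribosome biogenesis and mTORC1 lists 1 gene each was lower.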

How the data were processed

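The deposited table holds raw UMI counts by gene, a column for each library, which the authors had not normalized. Libraries were made by photo-isolation chemistry and CEL-seq2, and the authors mapped reads to GRCm38; the submitters' processing notes name UMI-tools 1.0.0, HISAT2 2.1.0 and featureCounts 1.6.4. The annotation release, the UMI length and the handling of reads that match several places are not given in the sources used here, which bears on every member with a near-identical copy. Depth was 81117 to 210588 UMIs per library, and 3 UMIs, the limit that a count of 0 allows, equal 14.2 to 37.0 CPM.

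The labels gave each library its group. Genes that reached 10 UMIs in total were scaled by TMM and tested in edgeR 4.0.16 (R 4.3.3; glmQLFit, glmQLFTest), with no covariate and Benjamini-Hochberg adjustment over all 7665. CPM are of TMM-scaled library sizes of those genes. Paralog shares were compared by exact permutation over libraries. Copies came from BLAST+ 2.17.0 of GENCODE M21 transcripts. DESeq2 1.42.0 and limma 3.58.1 (voom) were alternatives, and the tests were tested on simulated data.

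Named members are all that were called, the 8 of smallest p in each direction, the 5 with most UMIs, and the P stalk, *Rpl5* and *Rpl11*, the exit tunnel, paralogs and their parents; of each related list, the genes of smallest p. Members extreme in copy counts or in single libraries, and the copies, were picked out with their values in view. The members and lists were chosen with earlier results of these data known. Over all genes tested, same-numbered libraries of the 2 groups deviated from their group means with correlations of 0.109, 0.0146 and 0.0968. Those of different numbers ran from -0.117 to 0.0112, and no label says that a number marks a shared heart. The share of start sites with a run was first taken over the best start of each gene and then, after those values had been seen, over all starts. The values of 2 members are not reported singly here.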

Additional observations from a re-analysis of the deposited data

How the results depend on the processing

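Of the ribosomal protein results, the median log2 fold change of the members (0.32) stayed above 0 in every alternative run, from 0.16 without Atf3 high replicate 2 to 0.52 under scaling by library size. That scaling moved the median of all genes from 0.11 to 0.31, so the distance between members and all genes stayed at about 0.2, while with no filter on low counts the medians were 0.38 and 0.35. *Rpl37rt* was called in the fit as described, under each alternative scaling and filter, in DESeq2 and in limma-voom, but not after thinning to the shallowest library (-2.16, adjusted p = 0.103), which left 0 members called, nor when summed with copies (0 called). Without 1 library its value lay between -2.60 and -2.05 and the members called were 0 to 1. The number of members at an unadjusted p under 0.05, 5 in the fit as described, was 9 under library size scaling, 3 when summed with copies and 1 to 10 without 1 library. The number of families there, 3, became 11 under library size scaling and 0 to 12 without 1 library, and the number of genes of the related lists, 6, became 10 and 4 to 10. The difference of the member share, 0.833 percentage points, was 1.40 with copies and 0.590 to 1.25 without 1 library. Over all genes tested, same-numbered libraries correlated weakly, at 0.0146 to 0.109, but above libraries of different numbers. Over the members alone they correlated at 0.137, -0.0324 and 0.266, and libraries of different numbers at -0.27 to 0.146, which overlapped. Whether same-numbered libraries are pairs cannot be told. With the number as a replicate block 10 members and 8 families had an unadjusted p under 0.05. The share of all genes at that threshold is not given for these alternative fits, so the counts are no result about the members. Of all genes, 64.6% lay above 0 under library size scaling and 56.6% with the block, beside 55.2% in the fit as described. In the fit with the block *Rpl5* turned to 0.25 and *Rpl3l* to -0.54, and *Snhg1* passed the adjusted threshold. *Rpl5* also turned to 0.13 under library size scaling and 0.25 in limma-voom. *Rpl3l* turned to -0.0285 in DESeq2 and -0.62 in limma-voom, and *Rpl13* to -0.0046 and *Rplp2* to -0.0591 in limma-voom. Leaving out 1 library took these genes across 0: *Rpl13* (from -0.12 to 0.42), *Rpl19* (-0.85 to 0.39), *Rpl22* (-0.0314 to 0.11), *Rpl3* (-0.19 to 0.83), *Rpl36al* (-0.0305 to 1.11), *Rpl39* (-0.0531 to 0.52), *Rpl3l* (-1.56 to 0.56), *Rpl5* (-0.55 to 0.62), *Rpl7* (-0.0491 to 0.44), *Rpl7l1* (-0.062 to 0.99), *Rplp0* (-0.22 to 0.46) and *Rplp2* (-0.18 to 0.28). The cause of these changes was not tested. All reversals were of genes with an unadjusted p of 0.05 or more. At these depths 27 of the tested members had fewer than 100 UMIs.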
